A study of Mus musculus with 10 samples.

Results

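The 10 Toll-like receptor genes read here were Tlr1, Tlr2, Tlr3, Tlr4, Tlr5, Tlr6, Tlr7, Tlr8, Tlr9 and Tlr13, taken by their NCBI gene identifiers from a table of estimated read counts with 39488 rows. Of these, Tlr1, Tlr2, Tlr4, Tlr5 and Tlr6 encode receptors of the cell surface (5 genes) and Tlr3, Tlr7, Tlr8, Tlr9 and Tlr13 encode receptors of the endosome (5 genes). Peritoneal macrophages were drawn from C57BL/6 mice of 8 weeks of age, which carry no engineered allele, after thioglycollate had been injected to recruit cells into the peritoneal cavity. RNA was sequenced from 5 control libraries, which carry the label untreated, and from 5 ox-LDL libraries, whose cells received LPS (100 ng/ml) and afterwards ox-LDL, oxidized low-density lipoprotein (100 µg/ml), over 16 h. The libraries are given as biological replicates, and whether each came from a separate mouse or from pooled mice is not given. A legend in the study leaves room for LPS in the control cells too, and the protocol text attached to the control libraries names ox-LDL as well. The treatment label was followed, so every difference below compares untreated cells with cells given LPS and ox-LDL, and the effects of both agents cannot be told apart.

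Toll-like receptors recognise microbial molecules and pass the signal through the adaptors MyD88 and TRIF to NF-kB and to interferon regulatory factors. Those of the surface bind lipopeptides, lipopolysaccharide and flagellin, whereas those of the endosome bind RNA or DNA after particles have been taken up. In macrophages LPS is itself the ligand of TLR4, and oxidized lipoproteins are known to act through surface receptors that include TLR2, TLR4 and the scavenger receptor CD36.

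Total counts were between 20094647 and 20687289 in control libraries and between 19257131 and 20358017 in ox-LDL libraries. Levels of a gene are given as CPM, counts scaled to a common library size with edgeR's TMM factors, and levels between genes as FPKM, the deposited value divided by gene length. A gene was called higher or lower at an adjusted p below 0.01 in edgeR's quasi-likelihood test over 12654 genes, and fold changes are log2 values of ox-LDL against control. The defining macrophage genes were high in every library, with the 8 listed markers summing to 23113 to 42786 CPM by library size in controls and 12993 to 28180 in ox-LDL libraries. Within the ox-LDL group replicate 2 differed most from the rest, with a chi-square of counts per gene of 430 to 483 against the other 4 libraries, which differed from each other by 24.8 to 195. Its TMM factor was 0.593, against 0.916 to 1.18 in controls. Deviations from the group mean also varied with gene length in most libraries, with a Spearman's rho across genes, which are not replicates, of -0.65 in ox-LDL replicate 2 and of -0.57 to 0.52 in the other 9 libraries. The size of these deviations differed more, since the 6011 genes of 2500 to 8000 bases, a range that holds all 9 members tested, deviated by a median of -0.49 in ox-LDL replicate 2 and of -0.19 to 0.20 in the other 9 libraries. Values without ox-LDL replicate 1 or 2 are given where they moved a result.

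Of the 10 genes, 9 passed the filter on low counts, and Tlr5 did not. Tlr2 rose 10.6-fold after ox-LDL and Tlr8 was 9.16-fold lower in the fitted means, and no other member passed the test. A single member higher among 9 compares with 9.4% of all genes tested, and 1 lower with 5.35%. Both calls also had an absolute log2 fold change above 2, as did 6.71% of all genes tested. Tlr13 and Tlr4 had lower estimates of nearly the same size, -0.95 and -0.96, and missed the threshold. In simulated data the same test called only 11 of 97 genes with an absolute log2 fold change of 1. Missing the threshold at this size is therefore no sign of an unchanged gene. The groups did not overlap for 3 of the 9 members (Tlr2, Tlr8 and Tlr13), as for 20.7% of all genes tested. The median fold change was -0.82 over the 5 endosomal members and -0.20 over the 4 surface members tested. The surface median was higher by 0.61, a difference that ran from 0.18 to 1.02 over the 24 other fits and was 1.02 without ox-LDL replicate 1 and 0.59 without ox-LDL replicate 2. Endosomal estimates were all negative and surface estimates had both signs, but Tlr9 at -0.02 and Tlr6 at 0.02 changed sign under some of those fits. Over the 9 members the median was -0.42 and 7 were negative, against a median of 0.10 and 43.8% negative over all genes tested. As the members were chosen with results of these data known, these counts are a description and carry no test.

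**Figure D1:**
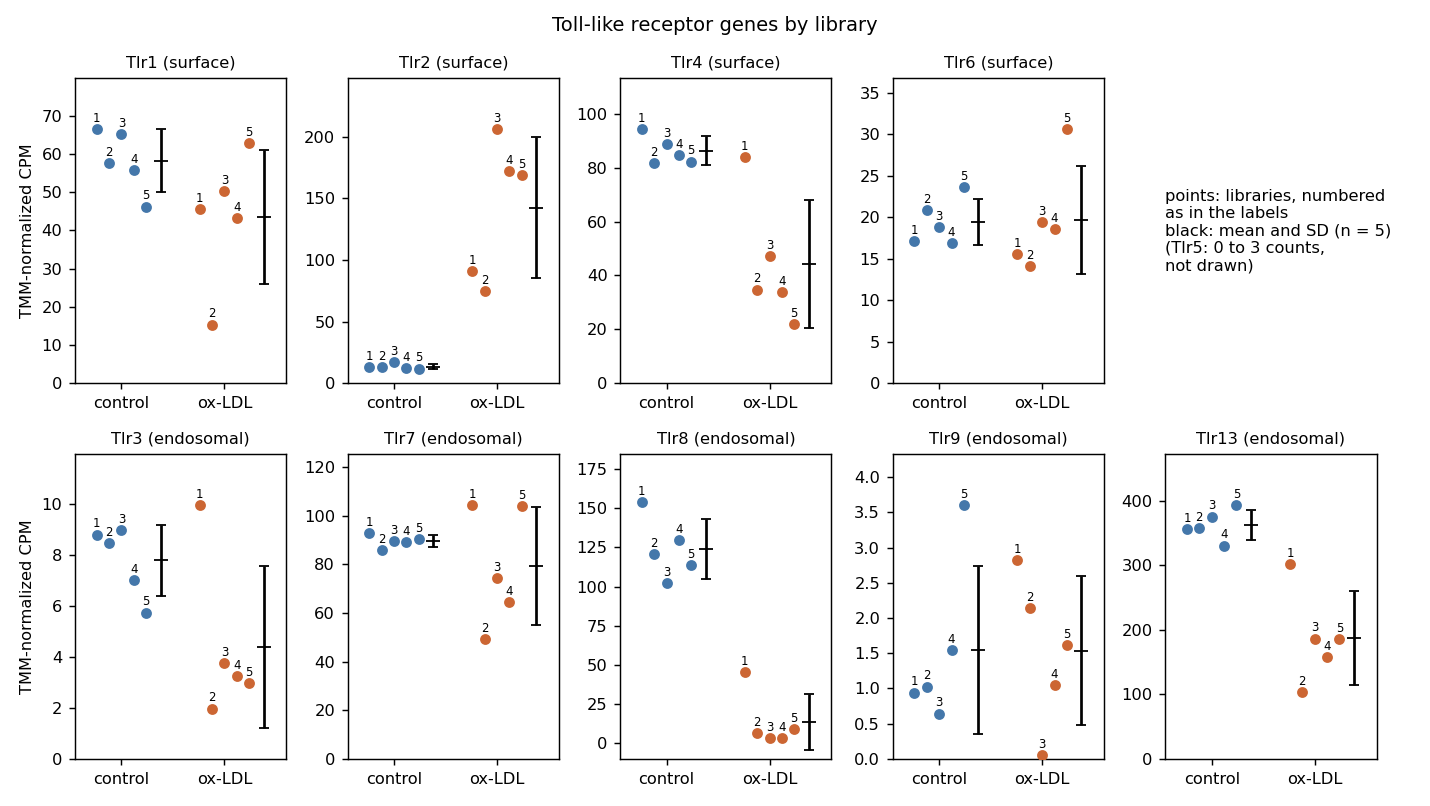
TMM-normalized CPM (y axis, linear, with a scale of its own per gene) of 9 Toll-like receptor genes in 5 control (blue) and 5 ox-LDL (orange) libraries, with the replicate number above each point and the mean and SD in black. Tlr2 was between 11.8 and 17.0 in controls and between 74.5 and 206 after ox-LDL, and Tlr8 was at least 102 in every control and at most 45.2 after ox-LDL.

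Tlr2 encodes the common partner of the lipopeptide receptors, which pairs with TLR1 or TLR6. It lies on mouse chromosome 3 (mm9 chr3:83640195-83645689, minus strand; NCBI gene 24088). In control replicates 1 to 5 it stood at 12.8, 13.2, 17.0, 12.3 and 11.8 CPM, and in ox-LDL replicates 1 to 5 at 90.9, 74.5, 206, 172 and 169 CPM. Each of the ox-LDL libraries exceeded all of the controls, as for 11.6% of all genes tested, and within the ox-LDL group replicates 1 and 2 were the lowest. The mean rose from 13.4 ± 2.08 to 143 ± 56.9 CPM (SD, n = 5 each), which is a fitted log2 fold change of 3.41 (SE 0.30, 95% interval 2.75 to 4.07, edgeR adjusted p = 2.23e-05), or 10.6-fold. By fitted fold change Tlr2 was in place 256 from the top of the 12654 genes. Under all 24 other fits it was called, with estimates from 2.90 to 3.54.

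The bases just before the start of Tlr2 are shown because it was the only member called higher. Beside them are those of Tlr8, the only member called lower, and of Tlr3, the other member with a match to the NF-kB consensus. RefSeq promoter windows of the build GRCm38.p6 matched 8 of the 10 members, and Tlr4 and Tlr7 had no entry. Capitals mark matches, on either strand, to the NF-kB consensus, to an ISRE (GAAA, NN, GAAA without a gap), a GAS element (TTCNNNGAA), a PU.1 word (GAGGAAG), an AP-1 word (TGANTCA) or a C/EBP word (TTGCNNAA), in the 250 bases upstream of the start, each written 5′ to 3′ on the gene's own strand.
Tlr2, chr3:83841609-83841858, minus strand: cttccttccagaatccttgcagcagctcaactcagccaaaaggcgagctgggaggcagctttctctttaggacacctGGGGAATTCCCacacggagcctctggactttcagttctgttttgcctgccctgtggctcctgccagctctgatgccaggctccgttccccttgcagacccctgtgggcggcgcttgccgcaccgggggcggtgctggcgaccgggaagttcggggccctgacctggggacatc
Tlr3, chr8:45410381-45410630, minus strand: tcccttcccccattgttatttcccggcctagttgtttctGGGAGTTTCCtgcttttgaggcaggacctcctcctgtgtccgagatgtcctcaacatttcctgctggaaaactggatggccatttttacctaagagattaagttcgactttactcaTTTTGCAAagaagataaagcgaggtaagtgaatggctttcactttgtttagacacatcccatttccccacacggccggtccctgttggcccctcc
Tlr8, chrX:167264330-167264579, minus strand: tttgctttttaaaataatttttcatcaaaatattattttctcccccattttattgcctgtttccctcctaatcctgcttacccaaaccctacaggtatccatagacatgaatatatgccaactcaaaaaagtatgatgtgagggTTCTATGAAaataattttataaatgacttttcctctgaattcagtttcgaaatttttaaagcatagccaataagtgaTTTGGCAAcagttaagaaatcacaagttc

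In Tlr2 the run in capitals held 3 overlapping matches to the NF-kB consensus, at 173 to 164 bases before the start and, on both strands of the same letters, at 172 to 163 bases. In Tlr3 the NF-kB match lay at 211 to 202 bases and a C/EBP word at 95 to 88 bases before the start. Tlr8 held no NF-kB match and had a GAS element at 106 to 98 bases and a C/EBP word at 29 to 22 bases. A GAS element also stood in a window of Tlr1, at 228 to 220 bases, and a C/EBP word in a window of Tlr6, at 89 to 82 bases. Of all 32851 windows of this length, 3.9% held the NF-kB consensus, 7.02% the GAS element and 9.56% the C/EBP word. The ISRE, found in overlapping copies before Tlr6, was in 2.98% of windows, the PU.1 word, found in Tlr1, Tlr9 and Tlr13, in 10.6%, and the AP-1 word, found in Tlr9, in 6.75%. A match describes letters and no binding was measured.

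Neither gene for a partner of TLR2 passed the test. Tlr1, whose product joins TLR2 to bind triacylated lipopeptides, stood at 66.4, 57.5, 65.2, 55.8 and 46.2 CPM in control replicates 1 to 5 and at 45.6, 15.3, 50.2, 43.2 and 62.8 CPM in ox-LDL replicates 1 to 5. The groups overlapped, and ox-LDL replicate 2 was far below all others. Its mean was 58.2 ± 8.18 CPM in controls and 43.4 ± 17.4 CPM after ox-LDL (n = 5), a log2 fold change of -0.42 (95% interval -1.07 to 0.23, edgeR adjusted p = 0.323), and of -0.25 without ox-LDL replicate 2 (adjusted p = 0.239).

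Tlr6, whose product joins TLR2 to bind diacylated lipopeptides, stood at 17.1, 20.8, 18.8, 16.8 and 23.6 CPM in control replicates 1 to 5. In ox-LDL replicates 1 to 5 it stood at 15.6, 14.1, 19.4, 18.5 and 30.6 CPM. The groups overlapped across their whole range, and replicate 5 was the highest library of each. The log2 fold change was 0.02 (95% interval -0.47 to 0.50, edgeR adjusted p = 0.968), a sign that turned negative with upper-quartile scaling (-0.14) and with library size alone (-0.17).

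Values of Tlr1 and Tlr6 are uncertain as a pair, because the genes lie side by side on chromosome 5 (mm9 chr5:65316050-65324000 and chr5:65344345-65351287, both on the minus strand) and share sequence. Of all 31-base words in the annotated Tlr1 transcript, 23.0% (603 words) also occurred in Tlr6, and no other pair of members shared any. The longest shared stretch, 229 bases inside both coding regions, is shown because reads within it cannot be assigned to either gene.
Tlr1, mm9 chr5:65316776-65317004, and Tlr6, mm9 chr5:65345067-65345295, minus strand: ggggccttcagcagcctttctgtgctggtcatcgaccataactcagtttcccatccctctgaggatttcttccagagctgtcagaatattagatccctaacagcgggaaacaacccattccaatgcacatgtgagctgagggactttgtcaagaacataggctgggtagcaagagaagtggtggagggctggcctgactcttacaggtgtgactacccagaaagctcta

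Tlr1 and Tlr6 were also the only members whose estimated counts were not whole numbers, in all 10 libraries. The remaining 8 members had whole counts throughout, and no member overlapped another gene of the mm9 annotation read here. The annotation used for counting was not checked for overlaps, so whether the missing statement on strand matters for these members was not tested.

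Tlr4, the receptor of lipopolysaccharide, lies on chromosome 4 (mm9 chr4:66488618-66591318, plus strand; NCBI gene 21898). It stood at 94.3, 81.7, 88.9, 84.5 and 82.3 CPM in control replicates 1 to 5 and at 83.8, 34.8, 47.1, 33.8 and 21.8 CPM in ox-LDL replicates 1 to 5. Only ox-LDL replicate 1 reached the control range, and the other 4 were below every control. The mean was 86.3 ± 5.26 CPM in controls and 44.2 ± 23.9 CPM after ox-LDL (n = 5), and the log2 fold change of -0.96 (SE 0.30, 95% interval -1.62 to -0.30) had an edgeR adjusted p of 0.0346. The estimate was -1.33 (adjusted p = 0.00134) once ox-LDL replicate 1 was left out.

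Tlr5, the flagellin receptor, had 3 counts in control replicate 5, 1 count in ox-LDL replicate 3 and 0 in the other 8 libraries. At this depth a level of up to 3 counts cannot be told from 0, and no fold change is given. This limit covers counting error only.

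Among the receptors of the endosome, Tlr8 alone passed the test. TLR8 is an RNA sensor in humans, and its mouse counterpart answers few of the usual ligands. The gene lies next to Tlr7 on the X chromosome (mm9 chrX:163680626-163702261, minus strand; NCBI gene 170744). It stood at 154, 121, 102, 129 and 114 CPM in control replicates 1 to 5 and at 45.2, 6.42, 3.51, 3.30 and 8.90 CPM in ox-LDL replicates 1 to 5. The groups did not overlap, as for 9.11% of all genes in this direction, and ox-LDL replicate 1 was several times higher than the other ox-LDL libraries. The mean fell from 124 ± 19.4 to 13.5 ± 17.9 CPM (n = 5), a log2 fold change of -3.20 (SE 0.68, 95% interval -4.68 to -1.72, edgeR adjusted p = 0.00459). Fitted expression after ox-LDL was 10.9% of control, in place 76 from the bottom of all genes. Without ox-LDL replicate 1 the fold change was -4.49 (adjusted p = 1.5e-05). The call was lost without control replicate 1 (adjusted p = 0.0115), control replicate 4 (0.0108) or ox-LDL replicate 5 (0.0153), with estimates that stayed at -2.94 or lower.

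Tlr7, the neighbour of Tlr8 and a sensor of single-stranded RNA, stood at 92.8, 85.8, 89.3, 89.0 and 90.2 CPM in control replicates 1 to 5. In ox-LDL replicates 1 to 5 it stood at 104, 49.2, 74.4, 64.3 and 104 CPM. The controls were nearly equal, and the ox-LDL libraries lay on both sides of them, with replicate 2 the lowest. The log2 fold change was -0.17 (95% interval -0.64 to 0.30, edgeR adjusted p = 0.599), against -0.29 without ox-LDL replicate 1 (adjusted p = 0.352) and -0.08 without ox-LDL replicate 2 (adjusted p = 0.709). The interval of Tlr7 lay wholly above that of Tlr8. Within libraries the FPKM ratio of Tlr7 to Tlr8 was 0.780 to 1.11 in controls and 3.02 to 26.0 after ox-LDL, and it was lowest in ox-LDL replicate 1.

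Tlr13, a sensor of bacterial ribosomal RNA, was the most abundant member in controls (mm9 chrX:103338543-103355832, plus strand; NCBI gene 279572). It stood at 356, 358, 376, 330.3 and 394 CPM in control replicates 1 to 5 and at 302, 104, 186, 158 and 186 CPM in ox-LDL replicates 1 to 5. The groups did not overlap, with ox-LDL replicate 1 closest to the controls and replicate 2 the lowest. The mean was 362 ± 23.7 CPM in controls and 187 ± 72.4 CPM after ox-LDL (n = 5), and the log2 fold change of -0.95 (SE 0.26, 95% interval -1.52 to -0.38) had an edgeR adjusted p of 0.0185. Leaving out either library that stood apart brought it past the threshold, at -1.19 without ox-LDL replicate 1 (adjusted p = 0.00297) and at -0.84 without ox-LDL replicate 2 (adjusted p = 0.00602).

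Tlr3, a sensor of double-stranded RNA, stood at 8.79, 8.47, 8.99, 7.0 and 5.73 CPM in control replicates 1 to 5. In ox-LDL replicates 1 to 5 it stood at 9.96, 1.97, 3.76, 3.25 and 2.99 CPM. As with Tlr4, 4 ox-LDL libraries were below every control, and replicate 1 was above every control. The log2 fold change was -0.82 (95% interval -1.65 to 0.01, edgeR adjusted p = 0.135), and -1.37 without ox-LDL replicate 1 (adjusted p = 0.00221). Tlr9, the receptor of unmethylated CpG DNA, was near the floor, at 0.64 to 3.61 CPM in controls and 0.05 to 2.83 CPM after ox-LDL. Its log2 fold change of -0.02 had a 95% interval of -1.54 to 1.49, which does not settle its direction, and it turned positive without control replicate 5 (0.56).

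**Figure D2:**
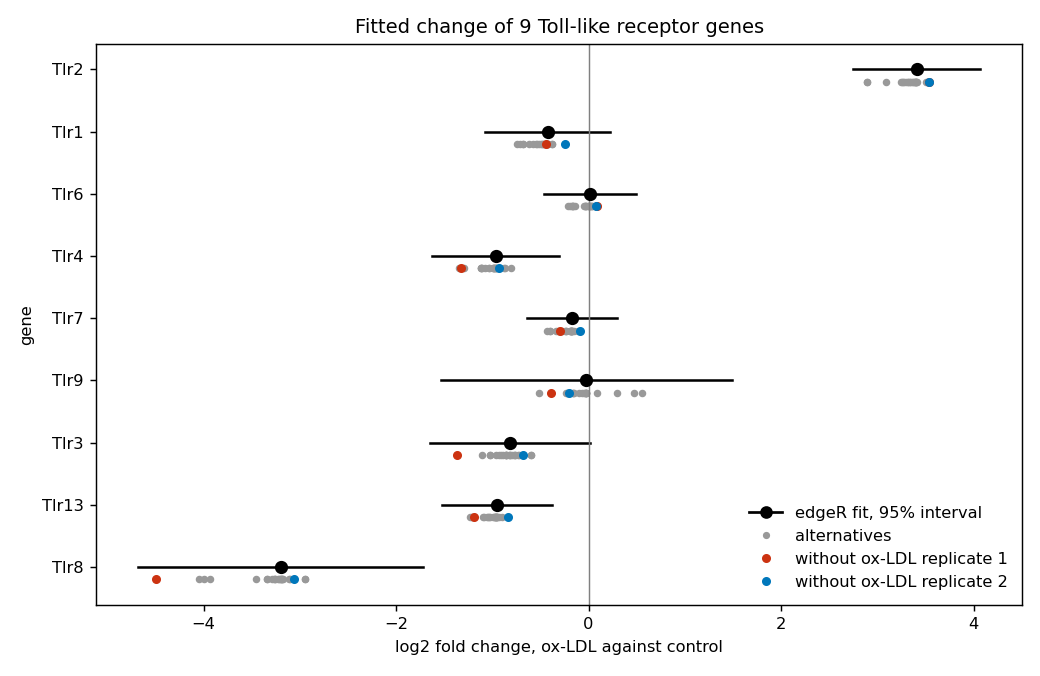
Log2 fold change of ox-LDL against control (x axis) for 9 Toll-like receptor genes (y axis), with the edgeR estimate and its 95% interval in black and the estimates of the alternative fits as smaller points, among them the fits without ox-LDL replicate 1 (red) and replicate 2 (blue). Tlr2 at 3.41 and Tlr8 at -3.20 stood far from 0, and without replicate 1 Tlr3, Tlr4, Tlr8 and Tlr13 moved further down.

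The same ox-LDL library lay nearest to the controls for each of the 4 members with the lowest fold changes. This was replicate 1, for Tlr3, Tlr4, Tlr8 and Tlr13. It was nearest to the controls for 54.2% of the 677 genes called lower and for 35.0% of the 1189 called higher. Compared with the mean of the other 4 ox-LDL libraries, replicate 1 was higher for 7 of the 9 members (median difference 0.97 on the log2 scale). Replicate 2 was lower for 8 of 9 (median -0.78). With each library's trend on gene length removed, Tlr13 (-1.09, adjusted p = 8.38e-04) and Tlr4 (-1.34, adjusted p = 0.00465) were called lower together with Tlr8.

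On the length-scaled scale the members differed widely in level. In controls the mean FPKM was 100.7 for Tlr13, 27.7 for Tlr8, 26.0 for Tlr7, 23.0 for Tlr1, 11.9 for Tlr4, 7.19 for Tlr6, 5.30 for Tlr2, 1.97 for Tlr3, 0.506 for Tlr9 and 0.01 for Tlr5. Of the 9 neighbouring pairs in this order 6 had ranges over the 5 libraries that did not overlap. The exceptions were Tlr8 and Tlr7, Tlr7 and Tlr1, and Tlr6 and Tlr2, although Tlr6 was above Tlr2 in all 5 control libraries.

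After ox-LDL the order by mean level changed, while Tlr3, Tlr9 and Tlr5 kept the last places. Mean FPKM was 51.6 for Tlr2, 48.9 for Tlr13, 21.2 for Tlr7, 16.1 for Tlr1, 6.54 for Tlr6, 5.84 for Tlr4, 3.03 for Tlr8, 1.10 for Tlr3, 0.432 for Tlr9 and 0.004 for Tlr5. The ranges of all neighbouring pairs overlapped in this group. Within libraries Tlr2 was above Tlr13 in 4 of 5, the exception being replicate 1, and Tlr13 was above Tlr7, Tlr7 above Tlr1 and Tlr4 above Tlr8 in 5 of 5. Tlr2 thus moved from place 7 to place 1 of the 10 genes by mean level, and Tlr8 from place 2 to place 7. Place 7 of Tlr8 rested on ox-LDL replicate 1, since by medians Tlr8 was in place 8 and Tlr3 in place 7, and Tlr8 was above Tlr3 in 3 of 5 ox-LDL libraries.

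The surface receptors held 23.7, 23.4, 25.0, 23.2 and 20.9% of the summed FPKM of the 10 genes in control replicates 1 to 5 and 35.9, 50.1, 60.5, 59.9 and 55.5% in ox-LDL replicates 1 to 5. No ox-LDL library was as low as a control, and replicate 1 was the lowest of its group. Tlr2 supplied most of this, with a share of 2.24 to 3.21% in controls and 18.0 to 42.7% after ox-LDL. With Tlr2 left out of both sums the surface share was 19.0 to 22.5% in controls and 21.9 to 31.7% after ox-LDL, and the groups then overlapped through ox-LDL replicate 1. The share of Tlr13 was 46.2 to 52.6% in controls and 26.9 to 42.0% after ox-LDL, and that of Tlr8 was 11.2 to 16.2% and 0.439 to 5.07%. The summed FPKM itself was 177 to 227 in controls and 50.2 to 221 after ox-LDL, with replicate 2 the lowest.

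**Figure D3:**
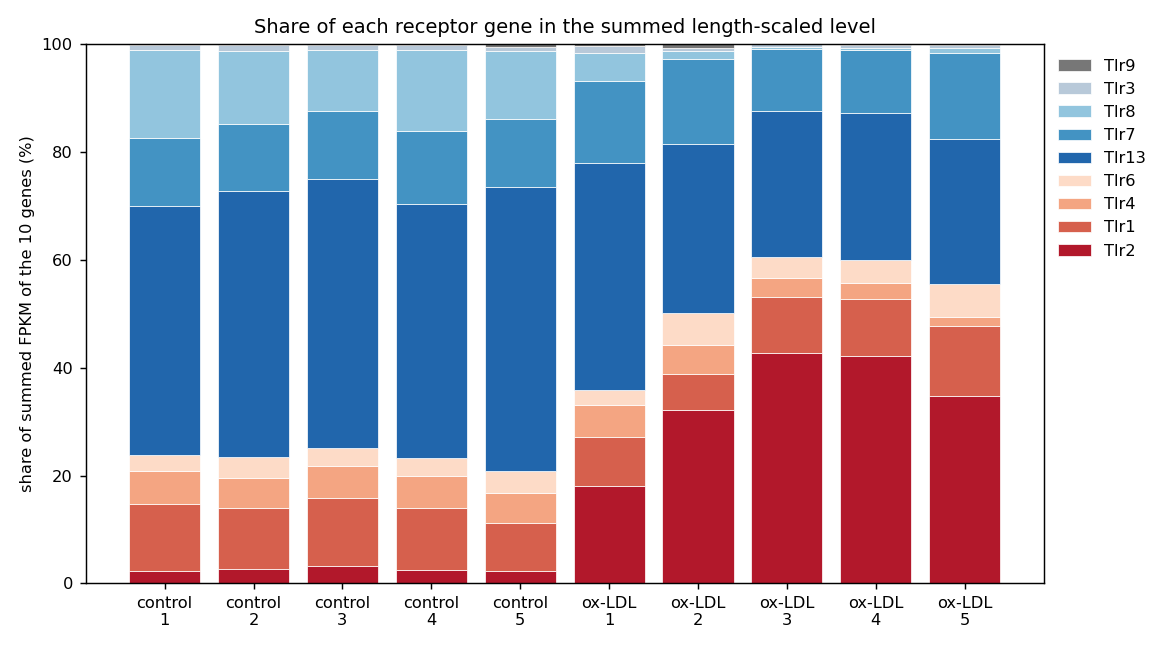
Share of each Toll-like receptor gene in the summed FPKM of the 10 genes (y axis, percent) in each of the 10 libraries (x axis), with surface receptors in red tones at the bottom and endosomal receptors in blue and grey above. The surface receptors held 20.9 to 25.0% in controls and 35.9 to 60.5% after ox-LDL, and the share of Tlr5 was too small to be drawn.

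Ratios within a library do not depend on its scaling. Tlr2 FPKM was 0.191 to 0.256 of Tlr1 in controls and 1.95 to 4.75 times Tlr1 after ox-LDL. Against Tlr6, the same ratio was 0.541 to 0.964 and 5.40 to 10.9, and against Tlr4 it was 0.382 to 0.542 and 3.08 to 22.0. For each of these ratios all 5 control libraries were below 1 and all 5 ox-LDL libraries above it. Tlr1 to Tlr6, by contrast, had overlapping ratios of 2.16 to 4.13 and 1.14 to 3.18.

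**Figure D4:**
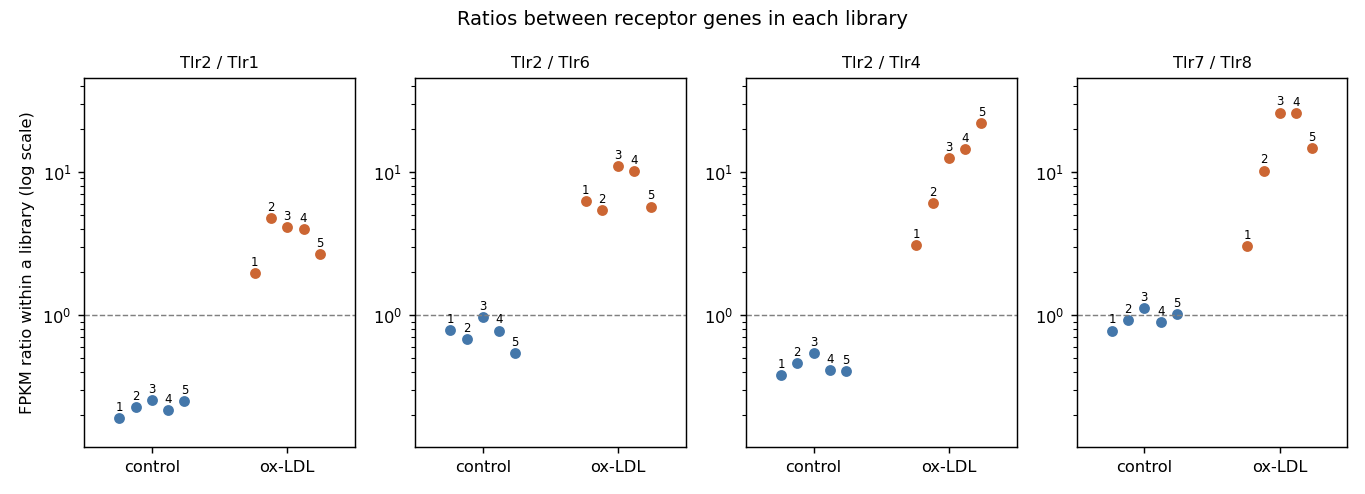
FPKM ratio between pairs of Toll-like receptor genes within each library (y axis, log scale) for control (blue) and ox-LDL (orange) libraries, numbered by replicate, with a dashed line at 1. Tlr2 was below Tlr1, Tlr6 and Tlr4 in all 5 controls and above them in all 5 ox-LDL libraries, and Tlr7 to Tlr8 was at most 1.11 in controls and at least 3.02 after ox-LDL.

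The genes that serve these receptors were read from a list of 57, of which 53 were tested. After ox-LDL 12 were higher and 0 lower, against 9.4% and 5.35% of all genes, with a median log2 fold change of 0.30. At an unadjusted p below 0.05 in edgeR, 24 were higher and 4 lower, against 4901 of all 12654 genes tested in either direction. DESeq2 called 2 of the list lower, Lgmn and Irak4. By role, 4 of 8 inhibitors tested were higher, 5 of 15 kinases and ubiquitin ligases, 1 of 5 transcription factors, 1 of 5 adaptors, 1 of 6 surface co-receptors and 0 of 14 genes of endosomal trafficking, processing and nucleases (2 higher and 1 lower at an unadjusted p below 0.05). Whether these shares differ between roles was not tested.

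Among surface co-receptors, 1 of 6 was called higher. This was Cd14, which hands lipopolysaccharide to TLR4, from 67.0 to 115 CPM in controls to 204 to 829 CPM after ox-LDL (log2 fold change 2.24, SE 0.36, edgeR adjusted p = 8.46e-04). Ly96, which encodes the MD-2 subunit that binds lipopolysaccharide beside TLR4, had a fold change of -0.53 (adjusted p = 0.401). Cd180 and its partner Ly86, which form a related surface complex, had -0.57 (adjusted p = 0.0903) and -0.87 (adjusted p = 0.296).

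Unc93b1, the chaperone that carries the nucleic acid receptors to the endosome, had a fold change of -0.26 (edgeR adjusted p = 0.395). Lgmn, a protease that cuts their ectodomains, had -0.96 (adjusted p = 0.0178), with 1518 to 1805 CPM in controls and 557 to 1167 after ox-LDL and no overlap. The exonuclease gene Pld4 had -1.11 (adjusted p = 0.142). The near-identical RNase genes Rnaset2a and Rnaset2b, whose reads cannot be safely divided between them, had 1.39 (adjusted p = 0.0192) and 1.42 (adjusted p = 0.0101).

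Of the adaptors, Ticam2, which links TLR4 to TRIF, rose from 46.0 to 58.0 CPM in controls to 92.4 to 126 CPM after ox-LDL (log2 fold change 1.00, SE 0.16, edgeR adjusted p = 7.47e-04). Ticam1, which encodes TRIF, had 1.12 (adjusted p = 0.0253). Myd88, the adaptor shared by nearly all of the receptors, had 0.14 (adjusted p = 0.668), and Tirap, which brings it to TLR2 and TLR4, had -0.53 (adjusted p = 0.155).

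Of the kinases and ubiquitin ligases, 5 of 15 were called higher and 0 lower. Irak2 rose by 1.49 (SE 0.26, edgeR adjusted p = 0.00152), whereas Irak4, the kinase that starts the cascade, had -0.69 (adjusted p = 0.0263) and Irak1 had -0.53 (adjusted p = 0.0590). Traf3 rose by 1.54 (adjusted p = 0.00134), Traf6 by 1.14 (0.00825), Ikbkg, which encodes the NEMO subunit of the kinase that frees NF-kB, by 1.44 (0.00475), and Tbk1, the kinase of the interferon arm, by 1.01 (9.77e-04). Among transcription factors Irf7, a regulator of interferon genes, rose by 4.54 (SE 0.70, adjusted p = 6.51e-04), from 8.39 to 66.3 CPM in controls to 210 to 939 CPM, while Rela, a subunit of NF-kB, had 1.03 (0.0290).

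The inhibitors called higher were Socs1, Nfkbia, Tnfaip3 and Irak3. Socs1, a cytokine signal suppressor, had a log2 fold change of 5.12 (SE 0.80, edgeR adjusted p = 7.12e-04). Nfkbia, which holds NF-kB in the cytoplasm, had 3.20 (SE 0.36, edgeR adjusted p = 8.1e-05). Tnfaip3, the ubiquitin-editing enzyme A20, had 2.28 (SE 0.30, 2.23e-04), and Irak3, an IRAK family member without kinase activity, had 1.77 (SE 0.41, 0.00781). Nfkbia stood at 18.0 to 24.6 CPM in controls and 87.8 to 400 CPM after ox-LDL, and Socs1 at 0.214 to 1.48 and 5.74 to 63.5 CPM. Of the 10 fits that left out a library, the call of Traf6 was lost in 8, that of Ikbkg in 7 and that of Irak3 in 7, and those of the other 9 genes in 0. Of those 9, Ticam2, Irak2, Traf3 and Tbk1 lost the call with library size alone (edgeR adjusted p = 0.0363, 0.0121, 0.0166 and 0.0374). Ticam2, Traf3 and Tbk1 also lost it in each limma fit on FPKM, and Irak2 in the unfiltered one. Traf3 lost it with both libraries numbered 5 left out. Without ox-LDL replicate 2, 19 of the list were higher and 2 lower (Ly96 and Lgmn), and without ox-LDL replicate 1, 2 were lower (Pld4 and Irak4). Tlr11 and Tlr12, rodent receptors of profilin, had at most 6 and 4 counts in any library.

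**Figure D5:**
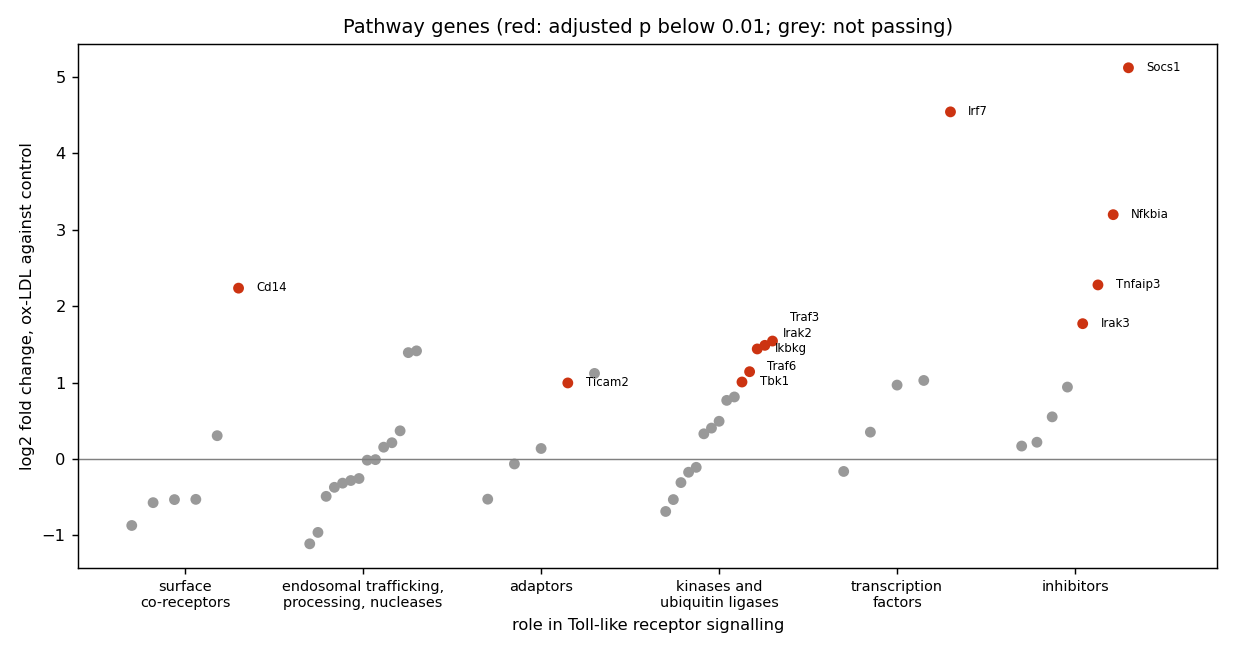
Log2 fold change of ox-LDL against control (y axis) for 53 genes of Toll-like receptor signalling, grouped by role (x axis), with the 12 genes called higher in red and named and the genes that did not pass in grey. The 4 inhibitors in red were between 1.77 and 5.12, and no gene of endosomal trafficking, processing and nucleases was called.

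Bulk RNA cannot tell fewer cells of a type from less RNA per cell, and markers of other cells were therefore read beside the receptors. Summed marker levels, in CPM by library size, were 7.91 to 16.6 in controls and 13.5 to 90.9 after ox-LDL for 7 neutrophil genes, 1.13 to 2.85 and 0.811 to 3.73 for 6 B cell genes, and 1.35 to 2.15 and 0.991 to 1.65 for 8 T and NK cell genes. For 6 plasmacytoid dendritic cell genes they were 2.34 to 5.67 and 3.35 to 15.7, for 5 conventional dendritic cell genes 1.37 to 2.73 and 2.27 to 4.00, and for 6 eosinophil and mast cell genes 2.91 to 8.26 and 0.678 to 2.00. For 3 genes of resident peritoneal macrophages they were 4.96 to 8.23 and 2.80 to 6.32. The mesothelial and stromal list, 10 genes, summed to 18.5 to 63.0 in controls and 67.1 to 178 after ox-LDL and had 3 genes called higher, Col1a1, Col1a2 and Dcn. Its collagen genes and Dcn contributed to it, while the mesothelial markers Msln and Upk3b were at or below 0.86 CPM in every library. The neutrophil sum was carried by S100a8, which was called higher (6.35 to 13.0 CPM in controls and 12.9 to 90.2 after ox-LDL), while Mpo was at or below 0.104 CPM and Ltf and Cxcr2 were at or below 0.106 after ox-LDL. Cox6a2 held most of the highest plasmacytoid sums, at up to 14.5 CPM, and Siglech was at or below 0.300 in every library. Among other markers called were Adgre1 (higher) of macrophages, Timd4 (higher) of resident macrophages, Clec9a (higher) of conventional dendritic cells and Siglecf (lower) of eosinophils. The part of these shifts in the receptor values was not tested.

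By the root mean square difference of centred log2 CPM over the 10 libraries, the genes most like Tlr2 were Ehd1 (0.270), Loxl2 (0.280) and Msantd3 (0.300). Those most like Tlr8 were Abcg3 (0.346), Sirpb1b (0.350) and Sirpb1c (0.412), of which the Sirpb1 genes are near-identical copies that can share reads.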

How the data were processed

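RNA of 5 control and 5 ox-LDL libraries was read on a BGISEQ-500 instrument. Per the labels, the submitters' processing notes name FastQC, HISAT2 2.0.5, SAMtools 1.4, StringTie 1.3.3.13 and the build mm9. The authors deposited estimated counts per gene, not normalized, of which 13.6% were not whole, and the counting step and its use of strand are not given in the sources used here. The authors also deposited a table of values scaled by gene length, without naming its unit, which was read as FPKM because count divided by value and library total was constant for a gene (median coefficient of variation 0.931% over 4929 genes).

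Rows of 9788 circular RNAs were left out, and counts were rounded. Genes were filtered with filterByExpr, normalized by TMM and tested with edgeR 4.0.16 (R 4.3.3; quasi-likelihood, robust, Benjamini-Hochberg over 12654 genes), called at an adjusted p below 0.01. Pathway genes called are all named, with up to 2 of the highest and 2 of the lowest fold changes per role; Ly96, Unc93b1 and Myd88 were added for their roles after their values were seen. For likeness, the 3 genes nearest to the member with the highest and to that with the lowest fold change were named. The members and lists were chosen with earlier results of these data known. DESeq2 1.42.0, limma 3.58.1, other scalings, filters, thresholds and left-out libraries were the alternatives. The fits were tested on simulated data with known changes in 200 genes, far fewer than the 1866 called in these data. There edgeR called 11 of 97 genes with an absolute log2 fold change of 1 and 91 of 99 with 3, with 0 false calls. DESeq2 called 28 of 100 and 99 of 100, with 15 false calls, which limits the calls it added. False calls were 0 with limma-voom and 1 with limma on FPKM. The exact permutation test foreseen for single values was not needed, since the fit covers each member that could be tested. No 2 libraries agreed within sampling noise. Values of some single genes are not reported here.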

Additional observations from a re-analysis of the deposited data

Results flagged for a closer look

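In 5 of 22 groups of 5 libraries (the CPM of 10 genes and the surface share, each in both conditions) a library stood apart by Dixon's ratio, the gap to the nearest library over the whole range, above the limit of 0.71, and about 1.1 such groups are expected by chance. Tlr8 in ox-LDL replicate 1 had a ratio of 0.866, with 45.2 CPM while the remaining 4 ox-LDL libraries had 3.30 to 8.90. Tlr3 in the same library had a ratio of 0.776, with 9.96 CPM while the remaining 4 had 1.97 to 3.76. Tlr2 in control replicate 3 had a ratio of 0.722, with 17.0 CPM against 11.8 to 13.2 in the other 4 controls, still far below the lowest ox-LDL library at 74.5 CPM. Tlr5 had a ratio of 1 in both groups, which only reflects 3 counts in control replicate 5, 1 count in ox-LDL replicate 3 and 0 counts elsewhere.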

How the results depend on the processing

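Tlr2 was called higher and was the only member higher under each of the 26 alternatives. The number of members lower, 1 in the report, was 3 with DESeq2, 3 with the length trend removed, 3 at an adjusted p below 0.05, 2 with limma-voom, 0 without a filter on low counts, 0 with both libraries numbered 5 left out, and 0 to 4 with a single library left out (0 without control replicate 1, control replicate 4 or ox-LDL replicate 5, 4 without ox-LDL replicate 1 and 2 without ox-LDL replicate 2). The cause was not tested. Tlr8 kept its sign throughout (-4.49 to -2.94) and missed the threshold without a filter (adjusted p = 0.0304) and with both libraries numbered 5 left out (0.0232). The median over members was -0.42 and became -0.92 with limma on log2(FPKM + 0.1). The filter of that fit dropped Tlr9, so these medians cover different sets of members. Tlr6, at 0.02, was -0.0240 with limma-voom, -0.0242 with the replicate block, -0.0487 without a filter, -0.14 with upper-quartile factors, -0.17 with library size alone, -0.16 with limma on log2(FPKM + 1) with or without a filter, -0.19 on log2(FPKM + 0.1), -0.17 with both libraries numbered 5 left out and -0.210 to 0.0923 with a single library left out. Tlr9, at -0.02, was 0.47 with both libraries numbered 5 left out and -0.39 to 0.56 with a single library left out. Pathway genes higher, 12 in the report, were 19 with DESeq2, 7 with library size alone, 6 with limma on log2(FPKM + 1) without a filter, 20 at an adjusted p below 0.05, 5 with an added absolute log2 fold change above 2, and 9 to 19 with a single library left out. Pathway genes lower, 0 in the report, were 4 with the length trend removed, 2 with DESeq2, 2 at an adjusted p below 0.05, 1 with upper-quartile factors, 1 with library size alone, 1 with each of the 3 limma fits on FPKM, and 0 to 2 with a single library left out. All genes called, 1866 in the report, were 3009 with DESeq2, 2869 with the length trend removed, 1026 with limma on log2(FPKM + 1) without a filter, 3365 at an adjusted p below 0.05, 849 with the added fold threshold and 1262 to 3257 with a single library left out (3257 without ox-LDL replicate 2). The share of calls that were higher was 63.7% and became 42.6% with limma on log2(FPKM + 1), 43.7% on log2(FPKM + 0.1) and 45.7% without a filter. Relative to TMM, the median of all genes moved by -0.14 with upper-quartile factors, -0.19 with library size alone, -0.23 with limma on log2(FPKM + 1) and -0.27 on log2(FPKM + 0.1). Replicate numbers are not stated to pair the libraries. Same-numbered libraries had correlations of -0.26 to 0.42, and 3 of 10 libraries correlated best with their own number. These values do not settle whether the libraries were paired. With the replicate block 1 member was higher and 1 lower, Tlr8 was -3.99 (adjusted p = 9.76e-04), and 1434 genes were called. Depth limits Tlr5 and Tlr9.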
